A study of Mus musculus with 20 samples.

Results

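Chaperone and heat shock genes were followed across 20 RNA-seq libraries of mouse bone marrow-derived macrophages. The set holds 37 listed genes for heat shock factors, HSP70s, HSP110s, HSP90s, DNAJ proteins, chaperonins and co-chaperones. They were chosen by name from the 46318 genes of the files, with earlier results of these data known. All 37 were among the 13307 genes with enough counts to be tested. The list is mostly cytosolic, but Hspa9, Hspd1 and Hspe1 encode chaperones of the mitochondrial matrix.

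Marrow cells came from C57BL/6 female mice and were differentiated in DMEM F12 medium with 20 ng/mL of recombinant murine M-DSF, as the labels spell the growth factor. Macrophages then stood for 24 h with DSHN at 50 µM together with GW3965 at 1 µM (labelled DSHNplusGW), with DSHN at 50 µM, with GW3965 at 1 µM, or with the solvent DMSO. Each treatment had 5 libraries, called biological replicates, and no label says whether these came from separate mice, so p-values measure the spread between these samples only. Per the labels, DSHN is an agonist of the nuclear receptor NR0B2, which inhibits LXR, and GW3965 is an agonist of LXR, a sensor of oxysterols.

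Chaperones hold unfolded proteins in a state from which they can fold. HSP70s bind short hydrophobic stretches in a cycle driven by ATP, in which DNAJ proteins deliver the substrate and HSP110 and BAG proteins exchange the nucleotide. Clients pass through Stip1 to HSP90s, which finish kinases and steroid receptors with their co-chaperones, while the ring-shaped CCT complex folds actin and tubulin. Under heat or proteotoxic stress HSF1 trimerises and binds heat shock elements, inverted repeats of a short unit with the letters GAA, upstream of the inducible members.

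The promoters of 7 members are shown because each holds a heat shock element close to the start of a gene described below. The sequences are RefSeq windows of build GRCm38.p6, whose coordinates are not those of the count files, and 29 of the 37 members had a window. Hsf1, Hspa8, Hspa9, Hsp90aa1, Hsp90ab1, Cct4, Ppid and St13 had none. Each stretch runs from 150 bases before to 30 bases after an annotated start, on the gene's own strand, and capitals mark the letters GAANNTTC, or the longer GAANNTTCNNGAA or TTCNNGAANNTTC where they overlap it.
Hspa1a, chr17:34972127-34972306, minus strand: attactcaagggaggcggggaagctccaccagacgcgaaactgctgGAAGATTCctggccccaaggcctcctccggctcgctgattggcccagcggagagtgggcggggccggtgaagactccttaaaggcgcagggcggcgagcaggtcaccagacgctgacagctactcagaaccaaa
Hspa1b, chr17:34959209-34959388, minus strand: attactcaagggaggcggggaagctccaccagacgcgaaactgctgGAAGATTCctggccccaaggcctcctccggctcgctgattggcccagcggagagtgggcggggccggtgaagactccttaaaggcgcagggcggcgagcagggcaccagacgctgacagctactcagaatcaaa
Hsph1, chr5:149636286-149636465, minus strand: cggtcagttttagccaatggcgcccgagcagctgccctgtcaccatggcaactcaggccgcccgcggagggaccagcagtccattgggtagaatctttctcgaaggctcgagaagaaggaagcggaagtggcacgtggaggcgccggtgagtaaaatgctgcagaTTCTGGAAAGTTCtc
Hspb1, chr5:135887769-135887948, plus strand: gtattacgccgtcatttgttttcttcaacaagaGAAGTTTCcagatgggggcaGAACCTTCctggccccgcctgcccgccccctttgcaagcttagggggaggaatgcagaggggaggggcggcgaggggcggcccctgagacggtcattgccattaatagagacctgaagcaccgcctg
Hspe1, chr1:55087998-55088177, plus strand: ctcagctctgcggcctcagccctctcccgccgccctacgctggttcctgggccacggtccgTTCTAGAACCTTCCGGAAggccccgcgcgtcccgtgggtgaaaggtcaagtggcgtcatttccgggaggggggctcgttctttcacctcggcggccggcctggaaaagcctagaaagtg
Dnajb6, chr5:29735748-29735927, plus strand: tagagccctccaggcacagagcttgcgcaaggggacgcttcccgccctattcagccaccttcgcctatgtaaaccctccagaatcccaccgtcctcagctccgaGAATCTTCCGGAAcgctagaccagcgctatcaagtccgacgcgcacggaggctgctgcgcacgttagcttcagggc
Chordc1, chr9:18292117-18292296, plus strand: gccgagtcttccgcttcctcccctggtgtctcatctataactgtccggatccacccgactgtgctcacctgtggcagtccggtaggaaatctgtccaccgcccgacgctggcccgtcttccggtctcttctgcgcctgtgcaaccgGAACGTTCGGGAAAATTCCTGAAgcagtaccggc

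The search covered the full windows of 300 bases around each start on both strands, and the short motif reads the same on either. It was in 7.86% of all 32851 windows, in at least 1 window of 9.04% of the 27025 genes that have one, and in those of 12 of the 29 members. These were Hspa1a, Hspa1b, Hsph1, Hspb1, Hspd1, Hspe1, Dnaja1, Dnajb6, Bag3, Cct2, Fkbp4 and Chordc1. The longer motif, which contains the short one, was in 0.603% of all windows, for 0.662% of these genes, and in those of 5 members, Hsph1, Hspd1, Hspe1, Dnajb6 and Chordc1. Hspd1 and Hspe1 lie head to head, and the element printed for Hspe1 (capitals at chr1:55088059-55088076) is also the one in the window of Hspd1, read from the other strand. The windows of Hspa1a and Hspa1b were 98.7% identical over 300 bases, and the element stood 104 to 97 bases before the start in both. A match describes letters in a window and says nothing of binding, and of a missing match no more follows than that these letters are not there.

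Library totals ran from 16855029 to 23796561 counts. Levels are CPM, read counts put on a per-library scale with TMM factors, and changes are log2 fold changes from edgeR's quasi-likelihood test over all 20 libraries, called at an adjusted p (Benjamini-Hochberg over the 13307 genes) under 0.05. The libraries with both compounds stood apart in a trend with exon length. For each library, log2 CPM minus the gene's mean over all 20 libraries was regressed on log2 length. This slope was −0.124 to −0.0943 with both compounds. It was 0.0057 to 0.063 for DSHN, 0.0263 to 0.046 for GW3965 and 0.0316 to 0.0629 for DMSO. The slopes are relative to the mean of all libraries, so their differences between treatments can be read and their signs alone cannot. This bears on the chaperones, since 30 of the 37 were shorter in exons than the median tested gene (3758 bases), with a median of 2588 bases. A correction for this trend moved many results that rest on the DSHNplusGW libraries, and corrected values are given beside many of these but not all. In bulk RNA, fewer cells of a type and less RNA per cell cannot be told apart.

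Per kb of exon, the constitutive cytosolic chaperones led in every treatment. Hsp90ab1, the constitutive HSP90, had 663 CPM per kb with both compounds, 639 with DSHN, 652 with GW3965 and 651 with DMSO. Hspa8, the constitutive HSP70, followed at 449, 422, 425 and 441 CPM per kb in the same order of treatments. The 7 CCT subunits on the list lay between 78.7 and 143.8 CPM per kb with both compounds and between 81.1 and 137.6 with DMSO. The stress-inducible HSP70 genes were at the bottom, Hspa1b with 1.62, 1.60, 1.88 and 1.79 CPM per kb and Hspa1a with 0.817, 0.424, 0.944 and 0.494, again with both compounds, DSHN, GW3965 and DMSO. Cells in DMSO thus had Hspa1a at 23 to 35 counts per library. Reads of Hspa1a and Hspa1b can map to both copies, and no option for such reads stands in the counting command. The levels of both genes, their place at the bottom and the split between them are thus uncertain.

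**Figure D1:**
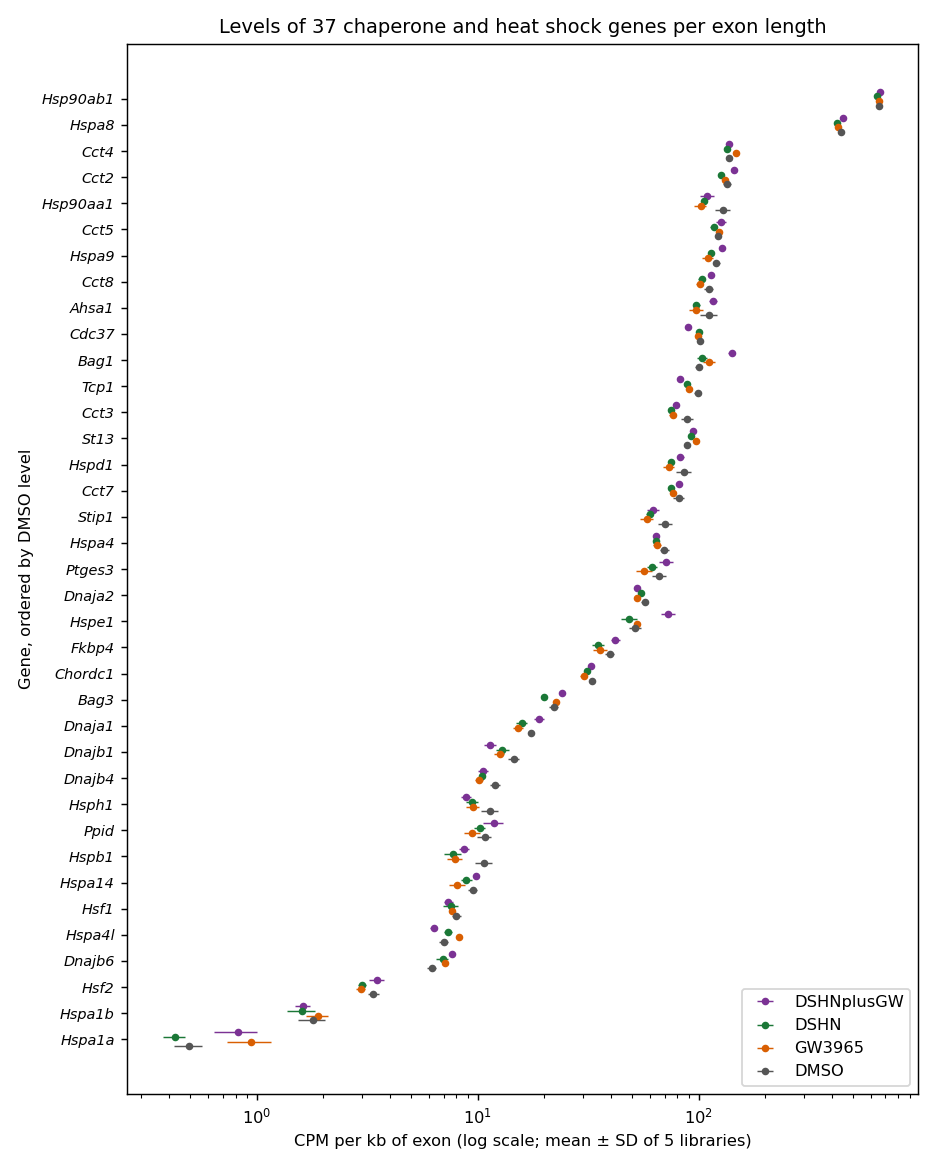
Levels of the 37 genes in CPM per kb of exon (horizontal log axis, mean ± SD of 5 libraries), ordered by their DMSO level, with 1 colour per treatment. Hsp90ab1 and Hspa8 lie at the top and Hspa1b and Hspa1a at the bottom in each treatment, and the colours of a gene lie close together against the range between genes.

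As counted, with both compounds against DMSO, BAG exchange factors, Hspe1, Dnajb6 and Hspa1a were higher, while the HSP110s, Hspb1, Hsp90aa1 and some DNAJ and CCT genes were lower. The length correction ended the calls of Hspe1 and Bag3 and split the HSP110s, with Hspa4l higher, Hsph1 lower and Hspa4 not called. Of the 37 members 9 rose (24.3%, against 31.9% of all genes tested) and 12 fell (32.4%, against 32.9%), so as counted neither share was above the background. In 6 members all libraries with both compounds lay above all DMSO libraries and in 10 below, against 23.8% and 25.9% of all genes. The median member had a log2 fold change of 0.0267, against 0.0102 over all genes tested. The smallest adjusted p among the rises were those of Bag1, 0.49 (SE 0.04, adjusted p = 1.23e-10), Hspe1, 0.49 (SE 0.06, adjusted p = 2.24e-08), and Dnajb6, 0.31 (SE 0.04, adjusted p = 7.89e-07), and among the falls those of Tcp1, −0.27 (SE 0.03, adjusted p = 8.87e-09), Dnajb1, −0.36 (SE 0.05, adjusted p = 1.7e-06), and Hsph1, −0.36 (SE 0.06, adjusted p = 4.31e-06). In the fit corrected for length 8 members were called higher (21.6%, against 30.2% of all genes) and 17 lower (45.9%, against 28.2%). There the share of members called lower was above the background, with a median of −0.0691 against 0.0167 over all genes. The correction ended the calls of Hspa9, Hspa4, Hspe1, Dnajb4, Bag3 and Cct2. It gave calls to Hsf2 and Hspa14 as higher and to Hsf1, Hspa8, Hspd1, Cct4, Cct5, Cct7, Ahsa1 and Chordc1 as lower.

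With DSHN alone against DMSO, the members that were called were lower with 1 exception. The falls held Hspb1, Hsp90aa1, Hsph1, the CCT subunits Cct3 and Tcp1 and the HSP90 adaptor Stip1. Of the 37, 18 fell (48.6%, against 14.8% of all genes tested) and 1 rose (2.7%, against 14.1%), the rise being Dnajb6. The median member was at −0.11, against 0.0018 over all genes, and 33 of 37 had a value below 0. In 8 members all 5 DSHN libraries lay below all 5 DMSO libraries, against 9.61% of all genes, and in none did all lie above (9.01% of all genes). The falls were small: the largest was 28% (Hspb1), and the median size of a called change was 0.17 on the log2 scale. Without DMSO replicate 5 the fall was called for 13 members, with 13 to 20 over all single libraries left out.

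With GW3965 alone against DMSO, members of every class but the BAG factors fell and 6 genes rose. Hsp90aa1, Hspb1, Cct3, Dnajb4, Stip1 and Hspd1 had the smallest adjusted p among the falls, and Hspa4l, Hspa1a, St13, Dnajb6, Cct4 and Bag1 made up the rises. Of the 37, 22 fell (59.5%, against 23.0% of all genes tested) and 6 rose (16.2%, against 23.6%). The median member was at −0.12, against 0.008 over all genes. No library overlapped between the groups in 8 members that were lower and 5 that were higher, which was so for 15.5% and 16.6% of all genes. DSHN and GW3965 are set against the same 5 DMSO libraries, so their values for a gene are not independent of each other.

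**Figure D2:**
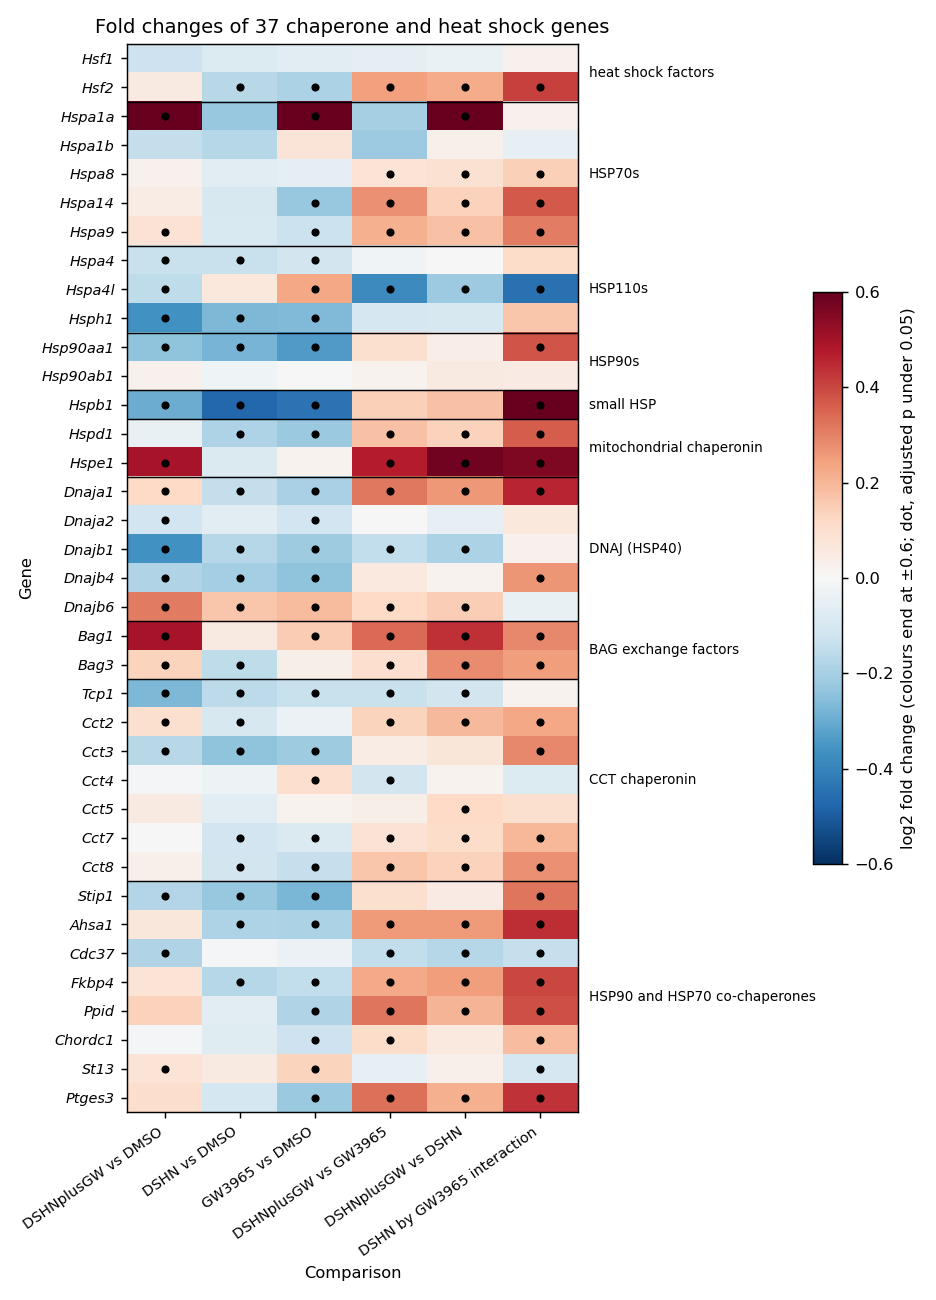
Log2 fold changes of the 37 genes (rows, grouped by class) in the 6 comparisons (columns, with the tested treatment named first), where red is higher and blue lower, colours end at ±0.6, and a black dot marks an adjusted p under 0.05. The columns of DSHN and of GW3965 against DMSO are mostly blue, while those of the combination against either compound and of the interaction are mostly red as counted, with no length correction.

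Of the heat shock factors, Hsf2 changed with the single compounds. Hsf1, the main stress factor, was not called in any of the 6 comparisons. It averaged 19.3 ± 0.939 CPM with both compounds, 19.8 ± 1.64 with DSHN, 20.0 ± 0.502 with GW3965 and 21.02 ± 1.02 with DMSO (SD, n = 5 each), and its value with both compounds against DMSO was −0.12 (SE 0.06, adjusted p = 0.0548). That p went under the threshold without DMSO replicate 2 (lowest of the single omissions, 0.0188) or DSHNplusGW replicate 5, and with the length correction Hsf1 was at −0.19 (adjusted p = 0.00324). Hsf2, which can form mixed trimers with HSF1, was lower with each compound alone: it had 33.2, 33.04, 29.6, 36.02 and 36.3 CPM with both compounds and 29.8, 27.9, 30.2, 27.01 and 29.0 with DSHN. GW3965 libraries held 28.0, 26.5, 28.1, 29.4 and 29.7 CPM and DMSO libraries 32.4, 32.4, 29.6, 32.99 and 34.5. DMSO replicate 3, at 29.6 CPM, lay within the ranges of both single compounds, and the other 4 DMSO libraries lay above them. Hsf2 fell, at −0.17 (SE 0.05, adjusted p = 0.0205) with DSHN and −0.19 (SE 0.05, adjusted p = 0.00513) with GW3965, and with both compounds it was at 0.06 (SE 0.05, adjusted p = 0.372) against DMSO. The call with DSHN was lost without DMSO replicate 5 or DSHN replicate 4 (adjusted p up to 0.0598). At 9618 exon bases Hsf2 is among the longest members, and with the length correction it was higher with both compounds than with DMSO, 0.31 (adjusted p = 2.83e-05).

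Among the HSP70s, the inducible Hspa1a (GeneID 193740, chr17:35188335-35191132 in GRCm39) had the largest changes of the whole list. It had 2.44, 3.08, 2.09, 1.76 and 2.07 CPM with both compounds and 1.16, 1.05, 1.08, 1.34 and 1.30 with DSHN, against 3.42, 2.81, 2.40, 2.75 and 1.82 with GW3965 and 1.58, 1.28, 1.19, 1.62 and 1.253 with DMSO. All 10 libraries that received GW3965 lay above all 10 that did not. The depth behind these values was small, with 52, 54, 39, 31 and 36 counts with both compounds, 28, 20, 24, 24 and 26 with DSHN, 61, 57, 48, 61 and 37 with GW3965 and 35, 27, 26, 31 and 23 with DMSO. Hspa1a was higher by 0.93 (SE 0.17, adjusted p = 6.08e-05) with GW3965 than with DMSO, by 0.73 (SE 0.18, adjusted p = 0.000747) with both compounds than with DMSO, and by 0.95 (SE 0.18, adjusted p = 6.45e-05) with both than with DSHN. DSHN alone was at −0.23 (SE 0.19, adjusted p = 0.418) against DMSO. Its neighbour Hspa1b (GeneID 15511, chr17:35175405-35178214), which encodes a nearly identical protein, had 4.197 to 5.01 CPM with both compounds, 3.45 to 5.03 in DSHN libraries, 4.48 to 6.12 in GW3965 libraries and 4.39 to 5.99 in DMSO libraries. These ranges overlap, and Hspa1b was called in no comparison, with 0.08 (SE 0.11, adjusted p = 0.593) for GW3965 against DMSO. Whether the responses of Hspa1a and Hspa1b differ was not tested.

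Hspa8, the most abundant HSP70, moved little against DMSO as counted. Hspa8 averaged 945 ± 14.3 CPM with both compounds, 888 ± 10.9 with DSHN, 894 ± 10.3 with GW3965 and 927 ± 23.0 with DMSO (SD, n = 5 each). It was called in none of the comparisons with DMSO as counted, although its values of −0.06 (SE 0.03, adjusted p = 0.0749) with DSHN and −0.05 (SE 0.03, adjusted p = 0.096) with GW3965 passed the threshold without DMSO replicate 2 (adjusted p = 0.023 and 0.0292). Corrected for length, it was lower with both compounds than with DMSO, at −0.11 (adjusted p = 0.000406). Mitochondrial Hspa9 had 388 ± 10.7 CPM with both compounds, 344 ± 6.65 with DSHN, 334 ± 19.7 with GW3965 and 366 ± 14.5 with DMSO. It fell, at −0.13 (SE 0.04, adjusted p = 0.00477) with GW3965 and rose by 0.09 (SE 0.04, adjusted p = 0.0435) with both compounds, a call near the threshold that was lost without any 1 of DMSO replicates 2 and 3 or DSHNplusGW replicates 1, 4 and 5 (adjusted p up to 0.134). The length correction ended that call too, at 0.07 (adjusted p = 0.102). Hspa14, an HSP70 that works at the ribosome, fell, at −0.23 (SE 0.05, adjusted p = 0.000528) with GW3965. With both compounds it was at 0.05 (SE 0.05, adjusted p = 0.426) as counted and, corrected for length, higher by 0.22 (adjusted p = 0.00126).

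Of the 3 HSP110s, which exchange nucleotide on HSP70, Hsph1 and Hspa4 were lower with each treatment than with DMSO. Hsph1 had 58.8, 59.0, 51.7, 56.5 and 57.1 CPM with both compounds and 60.6, 62.3, 56.0, 57.4 and 66.2 with DSHN. It had 62.5, 59.3, 55.0, 65.7 and 60.9 with GW3965 and 78.6, 68.7, 63.8, 75.0 and 78.1 with DMSO. The DSHNplusGW libraries all lay below the DMSO libraries, while 1 DSHN library (66.2 CPM) and 1 GW3965 library (65.7 CPM) lay above the lowest DMSO library (63.8 CPM). Hsph1 fell, at −0.36 (SE 0.06, adjusted p = 4.31e-06) with both compounds, −0.27 (SE 0.06, adjusted p = 0.000782) with DSHN and −0.26 (SE 0.06, adjusted p = 0.000429) with GW3965. Corrected for length, the first value was −0.16 (adjusted p = 0.0145). Hspa4 was at −0.13 (SE 0.03, adjusted p = 0.00133), −0.13 (SE 0.03, adjusted p = 0.00384) and −0.11 (SE 0.03, adjusted p = 0.00892) for both compounds, DSHN and GW3965, and with the correction the call for both compounds was lost, at −0.02 (adjusted p = 0.614).

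Hspa4l, the third HSP110, went the other way from its relatives with GW3965. It had 62.9, 63.1, 58.4, 58.5 and 62.4 CPM with both compounds and 69.2, 66.9, 71.4, 73.2 and 74.3 with DSHN. GW3965 libraries held 81.6, 76.9, 80.9, 80.3 and 78.8 CPM, above every other library of the study, and DMSO libraries 68.9, 71.5, 66.3, 69.5 and 63.1. Hspa4l rose by 0.23 (SE 0.04, adjusted p = 1.83e-05) with GW3965 and was lower with both compounds than with GW3965, at −0.38 (SE 0.04, adjusted p = 5.86e-09). Against DMSO it fell with both compounds, at −0.15 (SE 0.04, adjusted p = 0.00132), but this is the longest member, at 9674 exon bases. Corrected for length, that value turned to a rise, 0.11 (adjusted p = 0.011), while the value against GW3965 stayed below 0, at −0.13 (adjusted p = 0.00332).

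Of the cytosolic HSP90 genes, Hsp90aa1 fell in each treatment against DMSO and Hsp90ab1 was not called. Hsp90aa1, the inducible form, had 304, 313, 282, 342 and 312 CPM with both compounds and 319, 296, 297, 299.7 and 298 with DSHN. It had 278, 279, 277, 316 and 302 with GW3965 and 372, 334, 344, 379.6 and 405 with DMSO. All 10 libraries with a single compound lay below the lowest DMSO library (334 CPM), and 1 of the 5 with both compounds (342 CPM) lay above it. Hsp90aa1 fell, at −0.24 (SE 0.05, adjusted p = 0.000181) with both compounds, −0.28 (SE 0.05, adjusted p = 0.000132) with DSHN and −0.34 (SE 0.05, adjusted p = 4.49e-06) with GW3965. Hsp90ab1, the constitutive form, averaged 1662 ± 38.9 CPM with both compounds, 1603 ± 20.4 with DSHN, 1636 ± 26.5 with GW3965 and 1632 ± 35.5 with DMSO (SD, n = 5 each). It was called in no comparison as counted, with −0.03 (SE 0.03, adjusted p = 0.51) for DSHN and 0.0034 (SE 0.03, adjusted p = 0.935) for GW3965 against DMSO, and passed the threshold against DSHN without DSHNplusGW replicate 5 (adjusted p = 0.0334). Per kb, the ratio of Hsp90aa1 to Hsp90ab1 was 0.149 to 0.181 with both compounds, 0.160 to 0.175 in DSHN libraries, 0.150 to 0.168 in GW3965 libraries and 0.186 to 0.215 in DMSO libraries. No treated library reached the lowest DMSO ratio.

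Hspb1 (GeneID 15507, chr5:135916773-135918417), the small heat shock protein HSP27 that holds unfolded clients without ATP, was low and fell in each treatment. It had 8.06, 8.26, 8.05, 7.15 and 7.65 CPM with both compounds and 7.30, 7.62, 6.32, 6.26 and 7.23 with DSHN. The values were 7.35, 6.71, 7.26, 6.35 and 7.83 CPM with GW3965 and 9.68, 10.1, 10.6, 9.49 and 8.28 with DMSO, from 112 to 231 counts per library over all 20. Every treated library lay below the lowest DMSO library (8.28 CPM), the nearest being DSHNplusGW replicate 2. The falls were −0.30 (SE 0.08, adjusted p = 0.00162) with both compounds, −0.47 (SE 0.08, adjusted p = 5.02e-05) with DSHN and −0.44 (SE 0.08, adjusted p = 4.15e-05) with GW3965. Hspb1 has 903 exon bases, and with the length correction the fall with both compounds was larger, −0.67 (adjusted p = 8.88e-08).

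**Figure D3:**
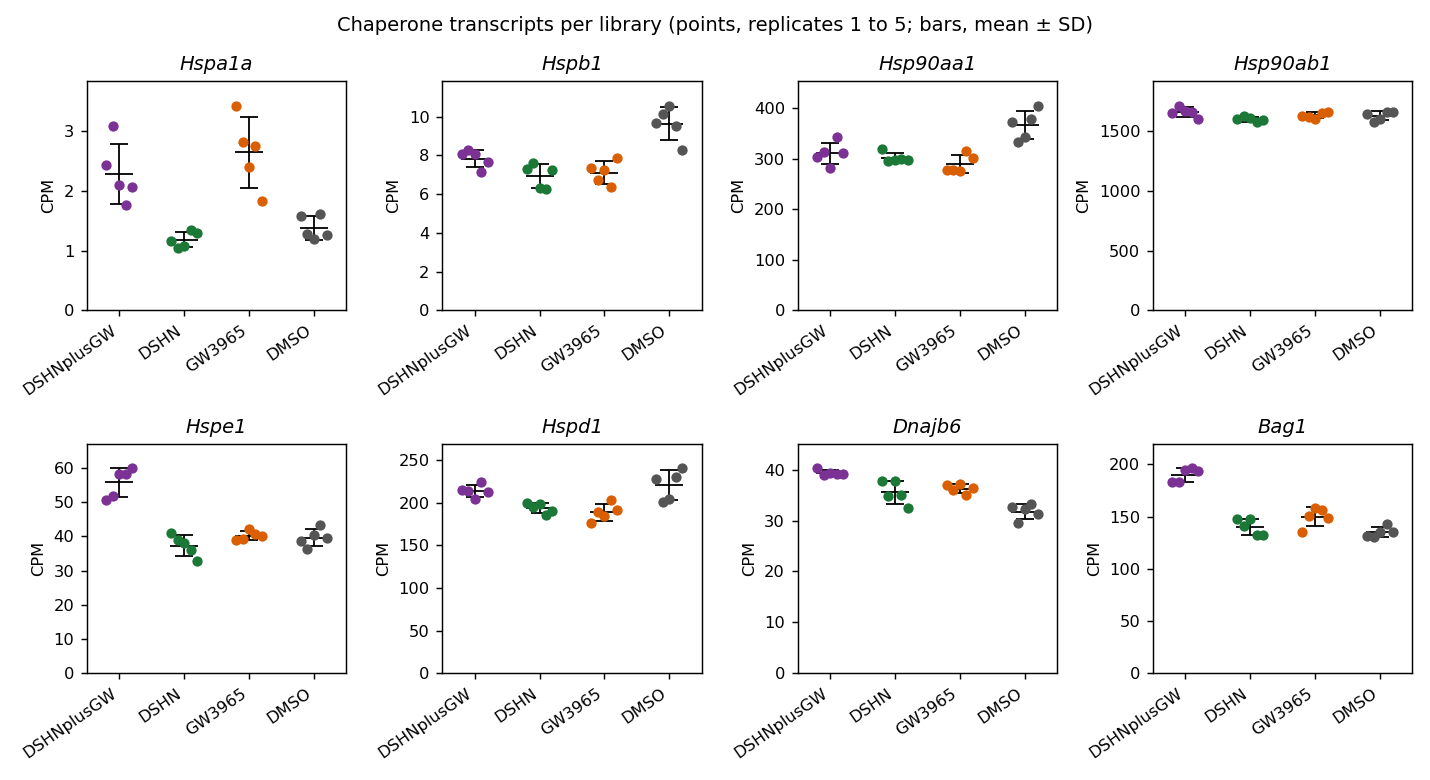
CPM of 8 members in each of the 20 libraries (points) with the mean and SD of each treatment (bars), on linear axes from 0. Hspa1a is higher in the libraries with GW3965, and Hspb1 is lower in all treated libraries than in DMSO libraries. Hsp90aa1 is lower on average in each treatment than with DMSO, and its libraries with both compounds overlap the DMSO range. Hsp90ab1 lies level, and Hspe1 and Bag1 are highest with both compounds.

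The mitochondrial chaperonin genes share the promoter shown above. Hspd1 encodes the HSP60 barrel and Hspe1 its HSP10 lid. Hspd1 had 215, 214, 204, 224 and 212 CPM with both compounds and 200.04, 195, 199, 186 and 189.8 with DSHN. It had 177, 189, 184, 204 and 192 with GW3965 and 228, 201, 204, 229.8 and 240.4 with DMSO, so all DSHN libraries and all but 1 of the GW3965 libraries lay below the lowest DMSO library (201 CPM). Hspd1 fell, at −0.19 (SE 0.04, adjusted p = 0.0024) with DSHN and −0.22 (SE 0.04, adjusted p = 0.000191) with GW3965, and was at −0.05 (SE 0.04, adjusted p = 0.381) with both compounds, a value that the length correction took to a called fall, −0.12 (adjusted p = 0.019). Hspe1 had 50.7, 51.8, 58.3, 58.2 and 59.9 CPM with both compounds and 40.8, 38.8, 38.0, 35.9 and 32.7 with DSHN. GW3965 libraries held 38.8, 39.2, 42.1, 40.7 and 40.1 CPM and DMSO libraries 38.7, 36.3, 40.3, 43.4 and 39.4. The 5 libraries with both compounds lay above all other 15, and the remaining treatments overlapped. Hspe1 rose by 0.49 (SE 0.06, adjusted p = 2.24e-08) with both compounds, and was at −0.09 (SE 0.06, adjusted p = 0.282) with DSHN and 0.02 (SE 0.06, adjusted p = 0.792) with GW3965. The gene is the shortest member, at 768 exon bases, and with the length correction its value against DMSO was 0.09 (adjusted p = 0.0746), no longer called. Exons of Hspe1 and Hspd1 overlap over 96 bases, 12.5% of those of Hspe1, and reads there cannot be told apart without strand. Per kb, the ratio of Hspe1 to Hspd1 was 0.795 to 0.962 with both compounds, 0.581 to 0.688 in DSHN libraries, 0.674 to 0.770 in GW3965 libraries and 0.552 to 0.665 in DMSO libraries. These ratios are as counted and hold the length trend, since Hspe1 is much shorter than Hspd1 (2588 exon bases).

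DNAJ genes, whose proteins hand substrates to HSP70, moved in both directions. Dnajb6, a suppressor of aggregation, rose in each treatment: it had 40.3, 38.9, 39.4, 39.1 and 39.2 CPM with both compounds and 37.7, 34.9, 37.8, 34.96 and 32.5 with DSHN. With GW3965 it had 36.9, 35.9, 37.2, 34.97 and 36.4 and with DMSO 32.6, 29.5, 32.3, 33.3 and 31.2. All libraries with both compounds and all with GW3965 lay above the DMSO libraries, and 1 DSHN library (32.5 CPM) lay among them. The rises were 0.31 (SE 0.04, adjusted p = 7.89e-07) with both compounds, 0.16 (SE 0.04, adjusted p = 0.00579) with DSHN and 0.19 (SE 0.04, adjusted p = 0.000787) with GW3965, and the length correction made the first larger, at 0.45. Dnajb1, the stress-inducible HSP40, had 39.7, 34.1, 35.4, 35.5 and 37.9 CPM with both compounds and 41.8, 44.0, 37.6, 40.2 and 44.9 with DSHN. It had 37.9, 39.2, 40.0, 42.9 and 42.4 with GW3965 and 45.2, 44.0, 46.8, 47.6 and 51.3 with DMSO. Its libraries with both compounds and with GW3965 all lay below those with DMSO. Dnajb1 fell, at −0.36 (SE 0.05, adjusted p = 1.7e-06) with both compounds, −0.17 (SE 0.05, adjusted p = 0.0154) with DSHN and −0.21 (SE 0.05, adjusted p = 0.00165) with GW3965. The call with DSHN was lost without DMSO replicate 5 or DSHN replicate 3 (adjusted p up to 0.062). Dnajb4 fell, at −0.20 (SE 0.04, adjusted p = 0.000446) with DSHN and −0.24 (SE 0.04, adjusted p = 2.77e-05) with GW3965, and its fall with both compounds, −0.18 (SE 0.04, adjusted p = 0.000414), turned to 0.01 (adjusted p = 0.764) with the length correction. Dnaja1 fell, at −0.14 (SE 0.04, adjusted p = 0.0177) with DSHN and −0.19 (SE 0.04, adjusted p = 0.000815) with GW3965, and rose by 0.12 (SE 0.04, adjusted p = 0.0209) with both compounds. That rise was lost without DMSO replicate 2 or DSHNplusGW replicates 1 or 4 (adjusted p up to 0.0645). Dnaja2 fell, at −0.11 (SE 0.03, adjusted p = 0.00243) with both compounds and −0.11 (SE 0.03, adjusted p = 0.00341) with GW3965.

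Bag1 and Bag3 encode nucleotide exchange factors that couple HSP70 to degradation, Bag1 to the proteasome and Bag3 to autophagy. Bag1 had 183, 183, 195, 196 and 194 CPM with both compounds and 148, 141, 147, 132 and 133 with DSHN. It had 135, 151, 158, 156 and 149 with GW3965 and 132, 131, 136, 143 and 135 with DMSO, so the libraries with both compounds lay above all others. Bag1 rose by 0.49 (SE 0.04, adjusted p = 1.23e-10) with both compounds and by 0.15 (SE 0.04, adjusted p = 0.00447) with GW3965, and was at 0.05 (SE 0.04, adjusted p = 0.385) with DSHN. With the length correction (1349 exon bases) the rise with both compounds was 0.22 (adjusted p = 2.3e-06). Bag3 had 64.2, 61.6, 63.4, 61.4 and 62.8 CPM with both compounds and 53.3, 51.0, 49.9, 52.2 and 50.8 with DSHN. It had 59.5, 56.8, 57.1, 60.0 and 59.2 with GW3965 and 57.8, 53.3, 57.5, 60.6 and 56.9 with DMSO. DSHN libraries were the lowest, with 1 above the lowest DMSO library (53.3 CPM in each). Bag3 fell, at −0.15 (SE 0.04, adjusted p = 0.00183) with DSHN and rose by 0.13 (SE 0.04, adjusted p = 0.00195) with both compounds, where the length correction left 0.06 (adjusted p = 0.135).

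Of the 7 listed subunits of the CCT complex, Cct3 and Tcp1 fell in each treatment. Summed per library they came to 1660 to 1733 CPM with both compounds, 1547 to 1628 in DSHN libraries, 1610 to 1684 in GW3965 libraries and 1648 to 1785 in DMSO libraries. With DSHN 5 of 7 fell and none rose, with GW3965 4 fell and Cct4 rose, and with both compounds Tcp1 and Cct3 fell and Cct2 rose. Over all genes tested, 14.8% fell and 14.1% rose with DSHN, 23.0% and 23.6% with GW3965, and 32.9% and 31.9% with both compounds. Cct3 had 155, 157, 152, 157 and 149 CPM with both compounds and 149.6, 145, 146, 145 and 147 with DSHN. It had 146, 145, 146, 155 and 155 with GW3965 and 172, 160.0, 165, 181 and 187 with DMSO, where every library lay above every treated one. Cct3 fell, at −0.17 (SE 0.04, adjusted p = 0.000296) with both compounds, −0.24 (SE 0.04, adjusted p = 1.68e-05) with DSHN and −0.21 (SE 0.04, adjusted p = 3.03e-05) with GW3965, and the first value was −0.33 (adjusted p = 8.93e-09) when corrected for length. Tcp1, the alpha subunit, averaged 205 ± 5.16 CPM with both compounds, 222 ± 3.09 with DSHN, 225 ± 3.70 with GW3965 and 247 ± 8.21 with DMSO (SD, n = 5 each), and fell, at −0.27 (SE 0.03, adjusted p = 8.87e-09), −0.16 (SE 0.03, adjusted p = 0.00017) and −0.13 (SE 0.03, adjusted p = 0.000478) in the 3 treatments in that order. Of its exon bases 32.3% lie on exons of other genes (Mrpl18 and Acat3, on the other strand), so its counts are uncertain. Cct4 had 281 to 297 CPM with GW3965 and 263 to 276 with DMSO, with no overlap, and rose by 0.10 (SE 0.03, adjusted p = 0.00415), while with both compounds it had 264 to 274 CPM and a value of −0.01 (SE 0.03, adjusted p = 0.82). The length correction made that value a called fall, −0.17 (adjusted p = 8.58e-06), and also gave calls to Cct5, at −0.08 (adjusted p = 0.0196), and Cct7, at −0.09 (adjusted p = 0.0195). The falls of Cct2, Cct7 and Cct8 with DSHN, at −0.10, −0.11 and −0.11, were lost without DMSO replicate 5 (adjusted p up to 0.0764, 0.0527 and 0.067 over all single omissions), those of Cct7 and Cct8 also without DMSO replicate 4, Cct2 without DSHN replicate 5 and Cct8 without DSHN replicate 4. With GW3965 the fall of Cct7, −0.09 (SE 0.04, adjusted p = 0.0482), was near the threshold and was lost without any 1 of DMSO replicates 1, 4 and 5 or GW3965 replicates 1, 2 and 3 (adjusted p up to 0.116). With both compounds the rise of Cct2, 0.10 (SE 0.03, adjusted p = 0.0102), had a value of −0.03 (adjusted p = 0.437) with the length correction.

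The co-chaperones of HSP90 and HSP70 were mostly lower with GW3965, where 6 of 8 fell and St13 rose. Over all genes tested, 23.0% fell and 23.6% rose with GW3965. Stip1, the adaptor between both chaperones, had 133, 136, 124, 147 and 136 CPM with both compounds and 137, 125, 132, 126 and 133 with DSHN. It had 116, 119, 126, 138 and 132 with GW3965 and 153, 137, 148, 163 and 164 with DMSO. DMSO replicate 2 was the lowest of its group and lay below 1 library of each treatment, while the other 4 DMSO libraries lay above all treated ones. Stip1 fell, at −0.18 (SE 0.05, adjusted p = 0.00364) with both compounds, −0.23 (SE 0.05, adjusted p = 0.00142) with DSHN and −0.27 (SE 0.05, adjusted p = 7.97e-05) with GW3965, and corrected for length the value with both compounds was −0.31 (adjusted p = 4.85e-06). Ptges3, which encodes the HSP90 co-chaperone p23, had 128, 133, 137, 151 and 147 CPM with both compounds and 126, 126, 122, 114 and 113 with DSHN. It had 99.0, 106, 108, 123 and 118 with GW3965 and 126, 117, 128, 140.1 and 136 with DMSO. The GW3965 libraries reached the DMSO range only with replicates 4 and 5. Ptges3 fell, at −0.22 (SE 0.06, adjusted p = 0.00191) with GW3965 and was at −0.11 (SE 0.06, adjusted p = 0.17) with DSHN and 0.11 (SE 0.06, adjusted p = 0.103) with both compounds, the last called without DMSO replicate 4 or DSHNplusGW replicate 1 (adjusted p down to 0.0412).

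Ahsa1, the activator of the HSP90 ATPase, and Fkbp4, a prolyl isomerase on HSP90, fell with each compound alone. Ahsa1 was at −0.19 (SE 0.05, adjusted p = 0.00742) with DSHN and −0.19 (SE 0.05, adjusted p = 0.00381) with GW3965, and 14.8% of its exon bases overlap Vipas39 on the other strand. Fkbp4 was at −0.17 (SE 0.05, adjusted p = 0.0107) and −0.15 (SE 0.05, adjusted p = 0.0168). With both compounds Ahsa1 was at 0.07 (SE 0.05, adjusted p = 0.251) against DMSO as counted and at −0.16 (adjusted p = 0.0061) with the length correction. Ppid, another such isomerase, and Chordc1, an HSP90 partner, fell with GW3965, at −0.18 (SE 0.07, adjusted p = 0.0269) and −0.12 (SE 0.03, adjusted p = 0.00439), against −0.07 (SE 0.07, adjusted p = 0.498) and −0.07 (SE 0.03, adjusted p = 0.112) with DSHN. Chordc1 was at −0.01 (SE 0.03, adjusted p = 0.741) with both compounds as counted and at −0.14 (adjusted p = 0.000746) corrected for length. The difference between the compounds was not tested. The call of Ppid was lost without any 1 of DMSO replicates 4 and 5 or GW3965 replicates 1, 2 and 3 (adjusted p up to 0.078). Cdc37, which brings kinases to HSP90, had 155, 153, 156, 155 and 157 CPM with both compounds and 179, 178, 173, 172 and 173 with DSHN. It had 176, 172, 169, 175 and 169.7 with GW3965 and 180.2, 173, 167, 179.9 and 182 with DMSO. The libraries with both compounds lay below all other 15. Cdc37 fell, at −0.18 (SE 0.03, adjusted p = 4.31e-06) with both compounds and was at −0.01 (SE 0.03, adjusted p = 0.792) with DSHN and −0.03 (SE 0.03, adjusted p = 0.364) with GW3965. The fall with both compounds was −0.38 (adjusted p = 7.53e-11) when corrected for length. St13, an HSP70 co-chaperone also called HIP, rose by 0.13 (SE 0.03, adjusted p = 0.000202) with GW3965 and 0.08 (SE 0.03, adjusted p = 0.00784) with both compounds.

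With DSHN added to GW3965, more members were higher than lower against GW3965 alone as counted, and nearly as many lower as higher with the length correction. Of the 37, 18 were higher with both compounds than with GW3965 (48.6%, against 28.3% of all genes tested) and 5 were lower (13.5%, against 29.5%), with a median of 0.10 against 0.0169 over all genes. In 14 members all libraries with both compounds lay above all with GW3965, and in 4 below, against 19.8% and 22.6% of all genes. The smallest adjusted p among the rises were those of Hspe1, 0.47 (SE 0.06, adjusted p = 8.44e-08), Bag1, 0.34 (SE 0.04, adjusted p = 1.38e-07), Dnaja1, 0.31 (SE 0.04, adjusted p = 1.38e-06), Hspa9, 0.22 (SE 0.04, adjusted p = 1.62e-05), Ptges3, 0.33 (SE 0.06, adjusted p = 1.87e-05), and Hspa14, 0.28 (SE 0.05, adjusted p = 4.66e-05). Those lower were Hspa4l, Cdc37, Tcp1, Cct4 and Dnajb1, the last lost without any 1 of DSHNplusGW replicates 2, 3 and 4 or GW3965 replicates 4 and 5 (adjusted p up to 0.0964). The call of Cct7, higher by 0.09 (SE 0.04, adjusted p = 0.0445), was lost without any 1 of DSHNplusGW replicates 2 and 4 or GW3965 replicates 1, 2 and 3 (adjusted p up to 0.0784). With the length correction 10 members were higher and 9 lower, against 23.8% and 23.5% of all genes, and the median was 0.0126. The calls of Hspa8, Hspd1, Bag3, Cct2, Cct7, Cct8, Ahsa1, Fkbp4 and Chordc1 were lost, Dnajb4 was then called higher, and Hsp90ab1, Cct3, Cct5 and St13 were called lower. Hsf2 went from 0.24 (SE 0.05, adjusted p = 0.00038) as counted to 0.50 (adjusted p = 7.01e-08). Cdc37 went from −0.15 to −0.34 (adjusted p = 3e-09) and Cct4 from −0.11 to −0.265 (adjusted p = 2.36e-08). Hspe1, Bag1 and Ptges3 were then at 0.13 (adjusted p = 0.013), 0.10 (adjusted p = 0.0159) and 0.17 (adjusted p = 0.0059), Dnaja1 at 0.33 (adjusted p = 8.91e-07), Hspa14 at 0.43 (adjusted p = 6.04e-07), and Hspa8, higher by 0.08 (SE 0.03, adjusted p = 0.00918) as counted, at −0.06 (adjusted p = 0.0709).

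**Figure D4:**
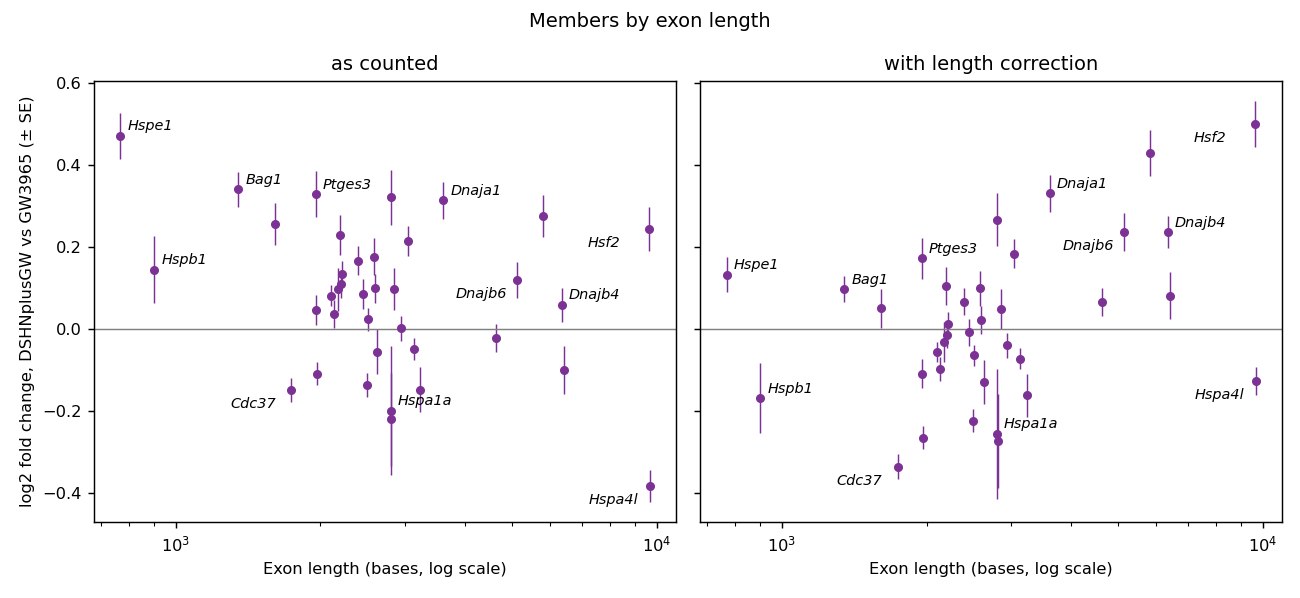
Log2 fold change with both compounds against GW3965 (vertical axis, ± SE) by exon length (horizontal log axis) for the 37 members, as counted on the left and with per-library length offsets on the right. Short members such as Hspe1 and Bag1 come down and long ones such as Hsf2 and Dnajb4 go up with the correction, while Dnaja1 is at 0.31 on the left and 0.33 on the right.

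Against DSHN alone, the libraries with both compounds had 19 members higher (51.4%, against 28.6% of all genes tested) and 4 lower (10.8%, against 29.5%), with a median of 0.11 against 0.0105. The largest value was that of Hspa1a, given above, and the smallest adjusted p those of Bag1, 0.44 (SE 0.04, adjusted p = 1.95e-09), Hspe1, 0.58 (SE 0.06, adjusted p = 2.88e-09), Bag3, 0.29 (SE 0.04, adjusted p = 1.65e-07), Cct2, 0.19 (SE 0.03, adjusted p = 1.3e-05), Dnaja1, 0.26 (SE 0.04, adjusted p = 1.72e-05), and Hspa1a. The genes lower were Cdc37, −0.17 (SE 0.03, adjusted p = 1.58e-05), Hspa4l, −0.22 (SE 0.04, adjusted p = 3.35e-05), Tcp1, −0.11 (SE 0.03, adjusted p = 0.00197), and Dnajb1, −0.19 (SE 0.05, adjusted p = 0.00409). Corrected for length, 13 members were higher (35.1%, against 23.5% of all genes) and 5 lower (13.5%, against 22.9%). Bag1 then stood at 0.20 (adjusted p = 2.12e-05), Hspe1 at 0.22 (adjusted p = 0.000115) and Cct2 at 0.07 (adjusted p = 0.0358). Cdc37 stood at −0.36 (adjusted p = 9.22e-10) and Tcp1 at −0.20 (adjusted p = 2.23e-06). In that fit Bag3 stood at 0.21 (adjusted p = 1.79e-05) and Dnaja1 at 0.28 (adjusted p = 7.28e-06), Cct5, at 0.12 (SE 0.03, adjusted p = 0.00391) as counted, stood at −0.01 (adjusted p = 0.743), and Hspa4l lost its call, at 0.03 (adjusted p = 0.524). Calls were also lost for Hspa8, Hspd1, Cct7, Cct8, Ahsa1, Ppid and Ptges3, while Hspa4 and Dnajb4 were called higher and Dnaja2 and Cct4 lower. In 15 members the groups did not overlap with both compounds higher and in 3 with them lower, against 19.8% and 22.8% of all genes.

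The interaction, the effect of DSHN in the presence of GW3965 minus its effect in DMSO, was mostly above 0 for the chaperones. It is built from the same 20 libraries as the comparisons above, so its values are not independent of theirs. It was called above 0 in 22 members (59.5%, against 23.7% of all genes tested) and below 0 in 3 (8.11%, against 26.5%), with a median of 0.23 against 0.0055. As counted, Hspb1 had the largest value, 0.62 (SE 0.11, adjusted p = 6.78e-05): DSHN was at −0.47 against DMSO and at 0.15 on top of GW3965. The value on top of GW3965 was not called (SE 0.08, adjusted p = 0.133) and was −0.17 (adjusted p = 0.106) with the length correction. The interaction was 0.56 for Hspe1 (SE 0.08, adjusted p = 3.03e-06), 0.46 for Dnaja1 (SE 0.06, adjusted p = 1.77e-06) and 0.44 for Ahsa1 (SE 0.07, adjusted p = 1.76e-05). It was 0.44 for Ptges3 (SE 0.08, adjusted p = 6.6e-05) and 0.38 for Hsp90aa1 (SE 0.07, adjusted p = 9.13e-05). For Hsp90aa1 both compounds together gave a fall of 0.24, against 0.28 with DSHN and 0.34 with GW3965. The values below 0 were those of Hspa4l, −0.45 (SE 0.05, adjusted p = 2.85e-07), Cdc37, −0.14 (SE 0.04, adjusted p = 0.00673), and St13, −0.10 (SE 0.04, adjusted p = 0.0268). The call of St13 was lost without any 1 of 13 libraries, which were DMSO replicate 4, DSHN replicates 2, 3, 4 and 5, DSHNplusGW replicates 2, 3, 4 and 5 and GW3965 replicates 1, 3, 4 and 5 (adjusted p up to 0.0939). With the length correction 20 members were above 0 and 4 below, against 21.5% and 22.6% of all genes, with a median of 0.14, and Hspb1 was at 0.35 (adjusted p = 0.0178). The largest corrected value was that of Hsf2, 0.65 (adjusted p = 4.93e-07), which was at 0.41 (SE 0.08, adjusted p = 7.38e-05) as counted. Hspe1 was then at 0.27 (adjusted p = 0.000921), Ahsa1 at 0.26 (adjusted p = 0.00284), Ptges3 at 0.29 (adjusted p = 0.00162), Hspa4l at −0.20 (adjusted p = 0.00121) and Cdc37 at −0.31 (adjusted p = 3.62e-06), the calls of Hspa8, Bag1, Cct7 and Chordc1 were lost, and Hspa4, Hsph1 and Cct4 were called, the last below 0.

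Within a treatment, single libraries held the highest or the lowest value for many members at once. DMSO replicate 5 was the highest of its 5 libraries for 23 members (62.2%, against 23.6% of all genes tested) and DMSO replicate 2 the lowest for 22 (59.5%, against 22.7%). GW3965 replicate 4 was the highest for 21 members (56.8%, against 24.9%), DSHN replicate 1 for 18 (48.6%, against 21.8%), and DSHNplusGW replicate 3 the lowest for 18 (48.6%, against 19.2%). Summed over the 37 members, DMSO libraries ran from 7205 to 7822 CPM, against 7399 to 7647 CPM with both compounds, 6958 to 7203 with DSHN and 7023 to 7413 with GW3965. The DSHN sums thus lay just below the DMSO range. The spread within a treatment was small all the same: the median coefficient of variation of the members was 3.48% with both compounds, 3.41% with DSHN, 4.23% with GW3965 and 4.74% with DMSO. For members above 20 CPM it was 3.19%, 3.17%, 3.64% and 4.71% in that order, against 4.74%, 4.88%, 4.63% and 4.65% of all tested genes above 20 CPM. The most even members were Cdc37 with both compounds (0.947%), Hspa8 with DSHN (1.23%) and with GW3965 (1.15%), and Cct4 with DMSO (1.77%).

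**Figure D5:**
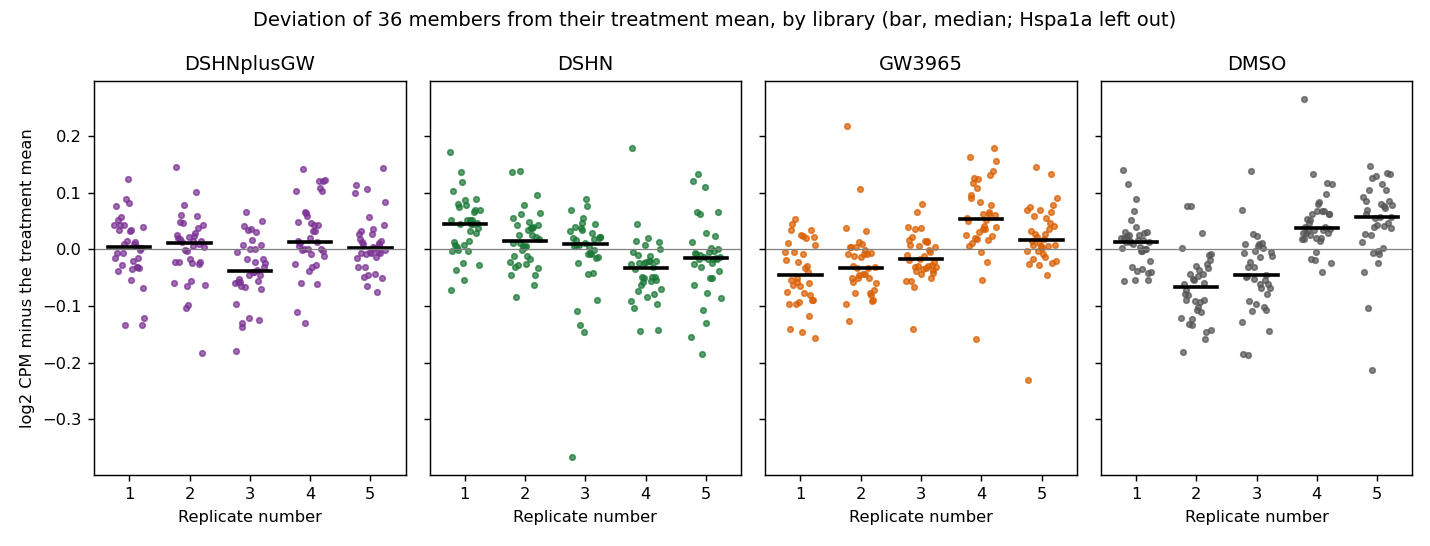
Deviation of log2 CPM from the treatment mean (vertical axis) in each library (horizontal axis) for 36 members (points, Hspa1a left out for its low counts), with the median as a bar. The bars of DMSO replicates 2 and 3 lie below 0 and those of DMSO replicates 4 and 5 above, GW3965 replicate 4 lies above its group, and with both compounds the bar of replicate 3 lies lowest.

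Chaperones outside the list were counted beside it. Of 37 other cytosolic chaperones and co-chaperones, 23 rose and 6 fell with both compounds, 4 rose and 5 fell with DSHN, and 8 rose and 8 fell with GW3965, all against DMSO. Over all genes tested, 31.9% rose and 32.9% fell with both compounds, 14.1% and 14.8% with DSHN, and 23.6% and 23.0% with GW3965. With the length correction 13 of the 37 rose and 7 fell with both compounds, against 30.2% and 28.2% of all genes. Among them Cct6a, a CCT subunit not on the list, fell, at −0.23 (SE 0.05, adjusted p = 0.000414) with DSHN. Fkbp5, an HSP90 immunophilin and glucocorticoid receptor target, fell, at −0.45 (SE 0.08, adjusted p = 6.42e-05) with DSHN and −0.79 (SE 0.08, adjusted p = 5.87e-09) with GW3965. Pfdn5, a subunit of prefoldin, which hands actin and tubulin to CCT, rose by 0.27 (SE 0.05, adjusted p = 0.000111) with GW3965 and 0.59 (SE 0.05, adjusted p = 1.66e-10) with both compounds, and Hsbp1, which encodes a binding protein of HSF1, by 0.21 (SE 0.04, adjusted p = 8.68e-05) and 0.50 (SE 0.04, adjusted p = 2.25e-11). Corrected for length, the rises with both compounds were 0.16 (adjusted p = 0.00103) for Pfdn5 and 0.19 (adjusted p = 6.61e-06) for Hsbp1. Of 14 chaperones of the endoplasmic reticulum, 8 rose and 1 fell with both compounds (4 and 2 when corrected for length), 2 rose and 4 fell with DSHN, and 7 rose and 3 fell with GW3965. Canx, the lectin chaperone calnexin, rose by 0.12 (SE 0.03, adjusted p = 0.00687) with DSHN and 0.26 (SE 0.03, adjusted p = 2.08e-07) with GW3965, while Hyou1, an HSP70 relative of that compartment, fell, at −0.24 (SE 0.06, adjusted p = 0.00252) with DSHN. Of 10 mitochondrial chaperones and proteases, 4 rose and 3 fell with both compounds (3 and 2 when corrected), 1 rose and none fell with DSHN, and 2 rose and 1 fell with GW3965. Hscb, a co-chaperone of iron-sulfur cluster assembly, was higher in all 3, by 0.87 (SE 0.10, adjusted p = 2.11e-08) with both compounds, 0.46 (SE 0.10, adjusted p = 0.00109) with DSHN and 0.62 (SE 0.10, adjusted p = 1.14e-05) with GW3965, the first being 0.48 (adjusted p = 4.22e-05) when corrected. The interaction was above 0 for 19 and below 0 for 4 of the cytosolic genes, with Nudc at 0.56 (SE 0.08, adjusted p = 2.59e-06), for 4 and 2 of the reticulum genes, with Manf at 0.64 (SE 0.09, adjusted p = 1.6e-06), and for 2 and 2 of the mitochondrial ones, against 23.7% and 26.5% of all genes. With the correction these counts were 13 and 4, 3 and 5, and 0 and 2 in the same order, with Nudc at 0.34 (adjusted p = 0.000128) and Manf at 0.36 (adjusted p = 0.000532).

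Macrophage markers were abundant in every library, as the labels give the cell type. The 10 macrophage markers summed to 20170 to 22010 CPM with both compounds, 21210 to 22490 in DSHN libraries, 19730 to 22120 in GW3965 libraries and 18800 to 20140 in DMSO libraries. Lyz2 was the most abundant of them and averaged 11770 CPM with both compounds, 12000 with DSHN, 10860 with GW3965 and 10250 with DMSO. The receptor genes Adgre1 and Csf1r averaged 1280 and 1488 CPM with both compounds, against 1726 and 1825 CPM with DMSO. Against DMSO, 5 of the 10 markers were called higher and 4 lower with both compounds (3 and 6 with the length correction), 7 and 2 with DSHN, and 6 and 1 with GW3965. Over all genes tested, 31.9% were called higher and 32.9% lower with both compounds (30.2% and 28.2% with the length correction). With DSHN these shares were 14.1% and 14.8%, and with GW3965 23.6% and 23.0%. Neutrophil, T and NK cell, erythroid and dendritic cell lists each summed to at most 2.16 CPM in any library, and the 3 globin genes of the erythroid list had no count in any library. Cd79b, which encodes a chain of the B cell receptor, averaged 6.96 CPM with both compounds, 5.31 with DSHN, 6.44 with GW3965 and 5.28 with DMSO, while the B cell genes Cd79a and Ms4a1 averaged at most 0.0360 CPM in any treatment. Cd79b was called higher with both compounds than with DMSO, by 0.40 on the log2 scale, and than with DSHN, by 0.39, and with GW3965 than with DMSO, by 0.28. The calls with both compounds were lost with the length correction, at 0.10 and 0.13. A list of 5 fibroblast and stroma markers, led by the collagen genes Col1a1 and Col1a2, summed to 1902 to 2325 CPM with both compounds, 2426 to 3089 in DSHN libraries, 2533 to 3310 in GW3965 libraries and 2257 to 2848 in DMSO libraries. With both compounds 4 of the 5 were called lower and 1 higher than with DMSO, and all 5 lower than with GW3965 and than with DSHN. Lower calls made up 32.9%, 29.5% and 29.5% of all genes tested in these comparisons. When corrected for length, 2 of these markers were lower and 1 higher than with DMSO, 3 lower than with GW3965 and 2 lower than with DSHN. Lower calls then made up 28.2%, 23.5% and 22.9% of all genes. The part of any of these markers in the changes of the chaperones was not tested.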

How the data were processed

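mRNA libraries of 20 macrophage samples (5 per treatment, grouped by the treatment label) were made with a stranded Kapa kit, per the labels' protocols. The authors aligned reads with STAR to GRCm39, per the labels, and the deposited values are raw counts per gene over exons from featureCounts 2.0.0, per the file headers. The command there sets no option for strand, multi-mapped reads or overlapping genes. Library totals were 16855029 to 23796561 counts. The members with the fewest counts were Hspa1a, Hspa1b (74 to 124 per library) and Hspb1 (112 to 231).

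Genes passing edgeR's filterByExpr (13307) were scaled with TMM factors and fitted with edgeR 4.0.16 (R 4.3.3) by the quasi-likelihood test, with 1 mean per treatment over all 20 libraries. P-values were adjusted by Benjamini-Hochberg over all genes tested and called under 0.05. No replicate pair agreed within sampling noise (chi-square per degree of freedom of at least 2.468 in 40 pairs). For the length correction, each gene's log2 CPM was taken as its deviation from the mean over all libraries. Each library's trend of these deviations with exon length was fitted by a spline (5 degrees of freedom) and entered as an offset. Alternatives were DESeq2 1.42.0 and its size factors, limma 3.58.1 voom, total counts only, no or a stricter filter, only the groups compared, the replicate number as a block, and each library left out. Values were given for the members with the smallest adjusted p in each comparison, for a fixed set of central chaperones and for up to 3 genes per comparison of each further list. Members, lists and the length correction were chosen with earlier results of these data known. The summed level of 1 further marker list is not reported here.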

Additional observations from a re-analysis of the deposited data

Results flagged for a closer look

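Of 148 groups of 5 libraries (37 members in 4 treatments), 4 held a library set apart from the others by a gap beyond Dixon's critical value for the group's range. Chance alone sets about 1 in 20 groups apart. Hsp90aa1 was at 319 CPM in DSHN replicate 1, Tcp1 at 232 CPM in GW3965 replicate 4, Ahsa1 at 202 CPM in DSHNplusGW replicate 4 and St13 at 287 CPM in DMSO replicate 5, each the highest of its group.

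The effect of DSHN differed with and without GW3965 for 25 of 37 members, by the interaction term of edgeR's quasi-likelihood test (adjusted p under 0.05). This term was called above 0 in 59.5% of members and below 0 in 8.11%, against 23.7% and 26.5% of all genes tested. On the log2 scale the effect with GW3965 minus that without was above 0 for Hsf2 (0.41), Hspa8 (0.14), Hspa14 (0.37), Hspa9 (0.31), Hsp90aa1 (0.38), Hspb1 (0.62), Hspd1 (0.36), Hspe1 (0.56), Dnaja1 (0.46), Dnajb4 (0.26), Bag1 (0.29), Bag3 (0.25), Cct2 (0.23), Cct3 (0.29), Cct7 (0.20), Cct8 (0.28), Stip1 (0.32), Ahsa1 (0.44), Fkbp4 (0.40), Ppid (0.39), Chordc1 (0.18) and Ptges3 (0.44). It was below 0 for Hspa4l (−0.45), Cdc37 (−0.14) and St13 (−0.10). With the length correction Hspa8, Bag1, Cct7 and Chordc1 no longer passed, and Hspa4, Hsph1 and Cct4 did.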

How the results depend on the processing

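No value called in either fit changed sign with DESeq2, its size factors in edgeR, limma voom, total counts, other filters, fewer groups in the fit, or the replicate number as a block, and counts of calls stayed within 1.5 times except as follows. Against GW3965, both compounds gave 10 members higher and 9 lower with the length correction (18 and 5 as counted), 11 lower with that correction and the replicate block together, and 3 lower with total counts only. The interaction was below 0 for 1 member with total counts only, against 3. The length correction, with or without the block, turned the sign of values called in at least 1 of the fits, in both compounds against DMSO for Hspa8 (−0.11), Hspa4l (0.11), Dnajb4 (0.015 and 0.014), Cct2 (−0.026), Cct5 (−0.081 and −0.082) and Ahsa1 (−0.16 and −0.15); both against GW3965 for Hspa8 (−0.056), Hsp90ab1 (−0.064), Cct3 (−0.11), Cct5 (−0.097), Cct7 (−0.0081 and −0.0078) and Chordc1 (−0.014); both against DSHN for Hspa8 (−0.045), Hspa4l (0.029 and 0.028), Cct3 (−0.080), Cct4 (−0.13) and Cct5 (−0.013). The cause of the length trend was not tested.

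With 1 library left out in turn no called value changed sign. For both compounds against DMSO the calls ran over 19 to 22 members, 7 to 10 higher and 12 to 13 lower. For DSHN against DMSO the calls ran over 14 to 21 members, 1 higher and 13 to 20 lower. For GW3965 against DMSO the calls ran over 26 to 29 members, 6 higher and 20 to 23 lower. For both against GW3965 the calls ran over 21 to 25 members, 17 to 21 higher and 4 to 5 lower. For both against DSHN the calls ran over 22 to 24 members, 18 to 20 higher and 4 lower. For the interaction the calls ran over 24 to 27 members, 22 to 24 higher and 2 to 3 lower.

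The labels do not say that replicate numbers pair the samples, and they were not used as pairs. Over 30 same-numbered pairs the correlation of deviations was −0.205 to 0.247 (median 0.04, over 0.1 in 10), against a median of −0.009 over 120 other pairs, and 13 of 20 libraries correlated best with their own number, a hint from the data and not from the design. With the replicate block 22 members were called for both compounds against DMSO and 27 for the interaction, against 21 and 25 without it. Hspa1a is limited by its depth of 20 to 61 counts per library.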
